A study of Homo sapiens with 12 samples.

Results

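The nuclear genes for the subunits of respiratory complex I were followed in 2 human prostate cell lines in which the transcription factor ERG had been changed. The members were the genes whose symbol is NDUFA, NDUFB, NDUFC, NDUFS or NDUFV followed by a number, and that were measured in the arrays of both lines: 32 genes of the 16251 genes in both tables. Of the genes measured in RWPE1 35 matched, and of those in VCaP 32, since NDUFA2, NDUFA6 and NDUFB9 were measured in RWPE1 only. The nearest names outside the rule were NDUFAB1, the acyl carrier protein of mitochondria, and COXFA4 and COXFA4L2, formerly NDUFA4 and NDUFA4L2.

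Complex I is the entry point of electrons from NADH into the respiratory chain of the inner mitochondrial membrane. Its matrix arm binds NADH, passes the electrons over a flavin and a row of iron-sulphur clusters, and hands them to ubiquinone. Its membrane arm pumps protons, and it is built around subunits encoded in mitochondrial DNA, which are not analysed here. The nuclear genes add the core subunits of the matrix arm and many accessory subunits that hold both arms together, and assembly factors join the parts without staying in the finished enzyme. Of the members, 13 belong to the matrix arm and 19 to the membrane arm, and 6 of the matrix arm genes are core subunits (NDUFS1, NDUFS3, NDUFS7, NDUFS8, NDUFV1 and NDUFV2).

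Total RNA was measured on 12 one-colour Illumina bead arrays in 6 groups of 2. VCaP is an established line from a prostate cancer metastasis with a fusion of TMPRSS2 to ERG. Its cells carried either scramble or ERG shRNA, brought in by lentivirus, and both groups were selected with puromycin. RWPE1 is an established, immortalised line of non-tumour prostate epithelium. Its cells were given either a GFP construct or a GFP-ERG construct, in which ERG is joined to GFP, and RNA was taken after 48 h or 72 h. The labels name neither the shRNA sequences nor the promoter of the constructs, and they give no untransfected cells. They say that transfections were made in duplicate, so that p-values measure the spread between duplicate arrays and not more. The signals are in log2 units, with a range of 5.95 to 15.1 for RWPE1 and of 7.44 to 15.4 for VCaP, so that a difference of 1 is read as a 2-fold change. In bulk RNA, less transcript in every cell and a loss from some of the cells cannot be told apart.

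The arrays were set against their labels first. In VCaP, the brightest ERG probe read 8.35 and 8.33 on the scramble arrays and 8.71 and 8.77 on the arrays labelled ERG shRNA. That is higher, not lower, though the probe's mean of 8.54 was only just above 8.44, the limit for the bottom of the scale. The other ERG probes stayed near the bottom. Each VCaP difference below is therefore one between arrays labelled ERG shRNA and arrays labelled scramble. In RWPE1, the ERG probe with the highest mean stood for the gene in the fit and was near the bottom of the scale. It did not follow the label. Its means at 48 h and 72 h were 6.93 and 6.94 with GFP and 6.92 and 6.91 with GFP-ERG. The other ERG probe read 6.30 and 6.43 with GFP at 48 h, 6.36 and 6.25 with GFP at 72 h, and the GFP-ERG arrays read 7.33 and 7.29 (48 h) and 6.93 and 6.94 (72 h). The VCaP arrays carried the luminal markers (9 of 9 off the bottom of the scale) and none of the basal, fibroblast, endothelial or leukocyte lists (0 of 6, 0 of 7, 0 of 5 and 0 of 4). The RWPE1 arrays carried 5 of 6 basal markers and 4 of 8 luminal ones, with KLK3, ACP3, TMPRSS2 and HOXB13 near the bottom. Of the fibroblast list 2 of 7 genes were off the bottom there, of the endothelial list 2 of 5, and of the leukocyte list 2 of 4. Off the bottom means a mean over 1 log2 unit above the lowest value of the table. In VCaP 26 of the 32 members met it, and NDUFA5, NDUFB1, NDUFB4, NDUFC2, NDUFS6 and NDUFV3 did not. In RWPE1 30 members met it, and NDUFA5 and NDUFB4 did not.

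The promoters of 6 members on which the results turn are shown with short motifs of factors that are known to act on genes of the respiratory chain or, for the ETS motif, that ERG and the related GABPA bind. NDUFA3 and NDUFA1 had the lowest VCaP differences and NDUFS1 the highest. NDUFA12 and NDUFV1 were the members called with GFP-ERG at single times in RWPE1, and NDUFA10 had the largest rise with time there. Each run is 250 bases before and 50 bases after the annotated start in the direction of the gene, from RefSeq on GRCh38.p14, with motif matches in capitals.
NDUFA3 promoter, chr19:54102605-54102904, plus strand: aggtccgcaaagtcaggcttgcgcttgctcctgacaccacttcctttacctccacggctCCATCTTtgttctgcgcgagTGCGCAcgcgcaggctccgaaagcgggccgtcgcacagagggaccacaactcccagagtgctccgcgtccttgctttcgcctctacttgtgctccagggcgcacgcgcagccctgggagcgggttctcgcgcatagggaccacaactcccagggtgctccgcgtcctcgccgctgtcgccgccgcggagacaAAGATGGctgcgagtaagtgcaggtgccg
NDUFA1 promoter, chrX:119871582-119871881, plus strand: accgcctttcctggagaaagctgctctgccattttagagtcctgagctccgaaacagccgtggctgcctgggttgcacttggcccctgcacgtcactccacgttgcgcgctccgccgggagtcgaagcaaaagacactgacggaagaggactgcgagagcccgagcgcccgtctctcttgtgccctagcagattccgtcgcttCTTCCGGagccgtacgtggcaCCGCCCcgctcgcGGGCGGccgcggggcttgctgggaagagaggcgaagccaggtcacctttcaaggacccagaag
NDUFS1 promoter, chr2:206159395-206159694, minus strand: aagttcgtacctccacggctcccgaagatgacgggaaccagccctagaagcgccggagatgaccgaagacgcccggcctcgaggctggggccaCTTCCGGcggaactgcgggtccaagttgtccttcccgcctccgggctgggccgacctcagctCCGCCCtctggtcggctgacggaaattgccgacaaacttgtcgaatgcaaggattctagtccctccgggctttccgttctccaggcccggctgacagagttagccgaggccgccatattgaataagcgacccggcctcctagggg
NDUFA12 promoter, chr12:95003648-95003947, minus strand: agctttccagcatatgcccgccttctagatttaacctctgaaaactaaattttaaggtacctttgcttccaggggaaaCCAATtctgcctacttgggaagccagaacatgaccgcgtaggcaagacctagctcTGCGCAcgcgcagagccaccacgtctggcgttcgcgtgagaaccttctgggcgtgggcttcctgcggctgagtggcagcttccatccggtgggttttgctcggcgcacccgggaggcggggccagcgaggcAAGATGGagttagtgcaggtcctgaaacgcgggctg
NDUFV1 promoter, chr11:67606686-67606985, plus strand: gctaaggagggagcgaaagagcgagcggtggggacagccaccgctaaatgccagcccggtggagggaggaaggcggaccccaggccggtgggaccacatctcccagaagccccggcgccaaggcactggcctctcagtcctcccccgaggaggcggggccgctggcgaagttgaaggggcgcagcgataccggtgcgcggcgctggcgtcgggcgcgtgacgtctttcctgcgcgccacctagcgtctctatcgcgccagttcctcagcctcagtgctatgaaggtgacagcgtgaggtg
NDUFA10 promoter, chr2:240025293-240025592, minus strand: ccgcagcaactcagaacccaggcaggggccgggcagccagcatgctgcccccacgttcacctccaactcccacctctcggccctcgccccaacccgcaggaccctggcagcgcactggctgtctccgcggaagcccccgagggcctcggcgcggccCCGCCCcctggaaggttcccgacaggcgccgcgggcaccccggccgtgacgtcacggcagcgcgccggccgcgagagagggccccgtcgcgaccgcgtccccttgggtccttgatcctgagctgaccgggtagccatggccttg
The motifs searched on both strands were CCGGAAG (ETS), TGCGCA (core of the NRF1 motif), AAGATGG (YY1), CCAAT (the CCAAT box), GGGCGG (Sp1) and AAGGTCA (ERR, the oestrogen-related receptors). No 2 matches overlap in the runs shown. The NDUFA3 run holds the NRF1 core and 2 YY1 matches, the NDUFA1 run an ETS match and 2 Sp1 matches, and the NDUFS1 run an ETS and an Sp1 match. The NDUFA12 run holds a CCAAT box, an NRF1 core and a YY1 match, the NDUFA10 run an Sp1 match, and the NDUFV1 run 0 matches. A promoter was at hand for 29 members and for 15843 genes in all. The ETS letters were in 5 of the 29 members' promoters (17.2%, against 14.2% of all promoters), in NDUFS1, NDUFS3, NDUFB7, NDUFA13 and NDUFA1. The NRF1 core was in 9 (31.0%, against 10.8%), the YY1 letters in 6 (20.7%, against 6.40%) and the ERR letters in 4 (13.8%, against 3.13%). Sp1 letters were in 18 (62.1%, against 58.5%) and the CCAAT box in 6 (20.7%, against 36.4%). These are matches of letters and not binding data.

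The family was chosen by the VCaP differences, since members were already known to be low on the arrays labelled ERG shRNA, so the VCaP values are given as a description, with no test. Most complex I subunits read lower on those arrays than on the scramble arrays. The median over the 32 members was a log2 difference of -1.08, against 0.004 over all genes, and 23 members were at -0.5 or lower, as were 5.35% of all genes. That share includes dim genes, whose differences are compressed. Off the bottom of the scale, it was 30.1% of genes spanning up to 15 kb of the genome and 7.95% of longer ones. In 25 members both arrays labelled ERG shRNA lay below both scramble arrays, which held for 23.9% of all genes, and in 2 they lay above, as in 28.9%. At the threshold of 0.05 on limma's p-value, Benjamini-Hochberg adjusted over all genes, 15 members counted as lower and 0 as higher, with 1.81% and 1.68% of all genes. With dim genes left out of the fit, 521 of 9233 genes were called lower and 500 higher. The choice of the family used this contrast, so nothing is read from these counts. The counts also depended on which arrays were kept, as did the calls over all genes, and all calls were lost with either scramble array left out. Without array 1 of those labelled ERG shRNA the median difference was -1.38, and without array 2 it was -0.84.

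NDUFA3, a small subunit of the membrane arm, read 10.35 and 10.67 on the arrays labelled ERG shRNA and 12.93 and 12.83 on the scramble arrays, a difference of -2.37. NDUFA1, a small X-linked subunit needed for assembly, read 11.08 and 11.32 against 13.19 and 13.51 (-2.15). NDUFB2, of the membrane arm, read 11.00 and 11.19 against 12.95 and 13.21 (-1.98). In all 3 the groups are separated by far more than either pair of arrays. NDUFA13, also known as GRIM-19, read 9.07 and 9.09 against 11.00 and 11.10 (-1.97). NDUFA11, a membrane-embedded subunit, read 9.70 and 9.35 against 11.41 and 11.44 (-1.90). NDUFB7, on the intermembrane side, read 10.62 and 10.51 against 12.44 and 12.33 (-1.82). All 6 of these lowest members are membrane arm subunits, and neither group reaches into the other in any of them.

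Of the other membrane arm members off the bottom, NDUFS5 (-1.81), NDUFB11 (-1.80), NDUFB3 (-1.59), NDUFB6 (-1.38), NDUFB8 (-1.36), NDUFC1 (-1.19), NDUFB10 (-1.09), NDUFB5 (-0.97) and NDUFA8 (-0.87) were all lower. NDUFS5, NDUFA8, NDUFB7 and NDUFB10 are subunits of the intermembrane side held by disulphide bonds. NDUFA10, with a fold like that of nucleoside kinases, stood apart in this arm with 9.44 and 9.38 against 9.58 and 9.63 (-0.20). The 16 membrane arm members off the bottom had a median of -1.69 and the 10 of the matrix arm a median of -0.93.

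The highest differences among members off the bottom, those of NDUFS1 and NDUFV1, belong to the matrix arm. NDUFV1, the core subunit that binds NADH and the flavin, read 12.50 and 12.32 on the arrays labelled ERG shRNA and 12.38 and 12.48 on the scramble arrays, and the groups overlap (-0.02). NDUFS1, the largest core subunit and a carrier of iron-sulphur clusters, read 9.27 and 9.22 against 8.70 and 8.53. It was higher by 0.63 and the only member off the bottom of the scale with both arrays above the scramble arrays. NDUFV2, a core subunit next to NDUFV1, read 11.94 and 10.68 against 12.20 and 11.92 (-0.75), where only the second array lay outside the scramble range. The remaining core subunits were lower: NDUFS7, which holds the last cluster before ubiquinone, at -1.33, NDUFS8 at -1.08 and NDUFS3 at -0.87. The median over the 6 core subunits was -0.81. Of the accessory subunits of this arm, NDUFA12 read 10.22 and 9.93 against 11.57 and 11.85 (-1.64), NDUFS4 10.22 and 9.29 against 10.95 and 11.01 (-1.22). NDUFA7 (-0.98) and NDUFA9 (-0.84) were lower too. NDUFS6 and NDUFC2, with NDUFS1 the highest differences of the family, were at 0.06 and 0.03 and near the bottom of the scale, where a difference in RNA would hardly show. NDUFV3 was the only member with a second probe, and it went the same way, from 8.40 to 8.16 in the brighter and from 7.80 to 7.71 in the dimmer.

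**Figure D1:**
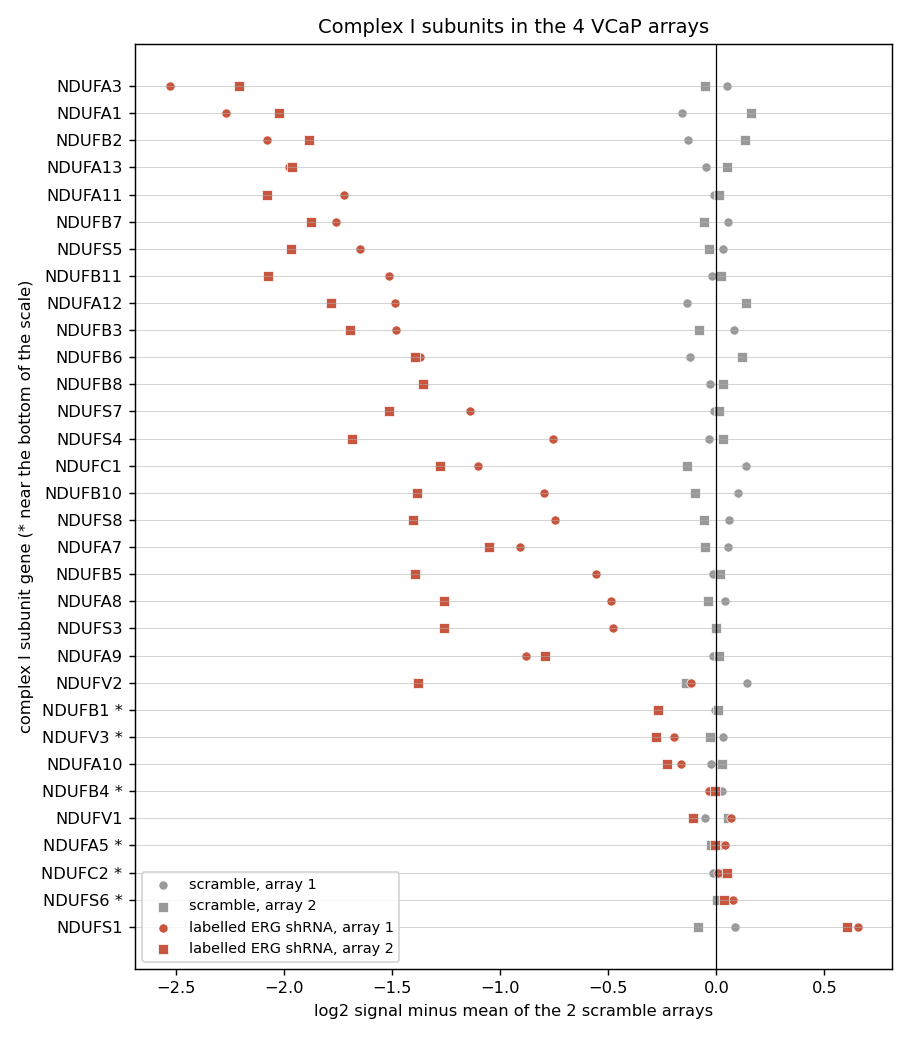
The horizontal axis is the log2 signal minus the mean of the 2 scramble arrays, and each row is 1 of the 32 members with its 4 VCaP arrays (grey scramble, red labelled ERG shRNA, circle array 1, square array 2, asterisk near the bottom of the scale). The rows run from NDUFA3 (-2.37) to NDUFS1 (0.63), and the red points of 1 member can lie far from each other, as in NDUFV2.

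The arrays labelled ERG shRNA did not read alike. Set against the scramble mean, the median member was at -0.84 on array 1 and at -1.38 on array 2, and array 1 was the higher of the pair in 24 of 32 members. The gap was over 0.5 in 8 members, NDUFV2, NDUFS4, NDUFB5, NDUFS3, NDUFA8, NDUFS8, NDUFB10 and NDUFB11, which is 25% of the members against 6.52% of all genes. On the scramble pair it was over 0.5 in 0 members, against 0.538% of all genes. Both shares of all genes include dim genes, whose differences are compressed. NDUFA8 for example read 11.83 and 11.05 on the arrays labelled ERG shRNA and 12.35 and 12.28 on the scramble arrays. NDUFS3 read 10.83 and 10.05 against 11.31 and 11.31. The 6 members lowest in the mean had no gap over 0.5. The median member was below the scramble mean on both arrays, and the size of the difference depends on which of them is used. What made the pair differ was not tested.

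How much of the genome a gene spans moved with the VCaP difference in all genes, and 17 of the 26 members off the bottom span up to 15 kb, as do 1747 of 5733 genes. Among all 5733 genes off the bottom with a span, Spearman's rho between difference and span was 0.38, and it was 0.44 among the 26 members, as a description across genes that share the same 4 arrays. Among the members spanning up to 15 kb, 16 of 17 (94.1%) were at -0.5 or lower, with a median of -1.59, against 30.1% of 1747 genes with a median of -0.18. Among those above 15 kb, 7 of 9 (77.8%) were, with a median of -0.87, against 7.95% of 3986 genes with a median of 0.17. NDUFA3 spans 4714 bp and NDUFA1 4831 bp, but NDUFV1, at -0.02, spans 5619 bp, and NDUFS4, at -1.22, spans 122700 bp. The 15 kb limit was chosen after the values had been seen, and the part of gene span in the result was not tested.

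**Figure D2:**
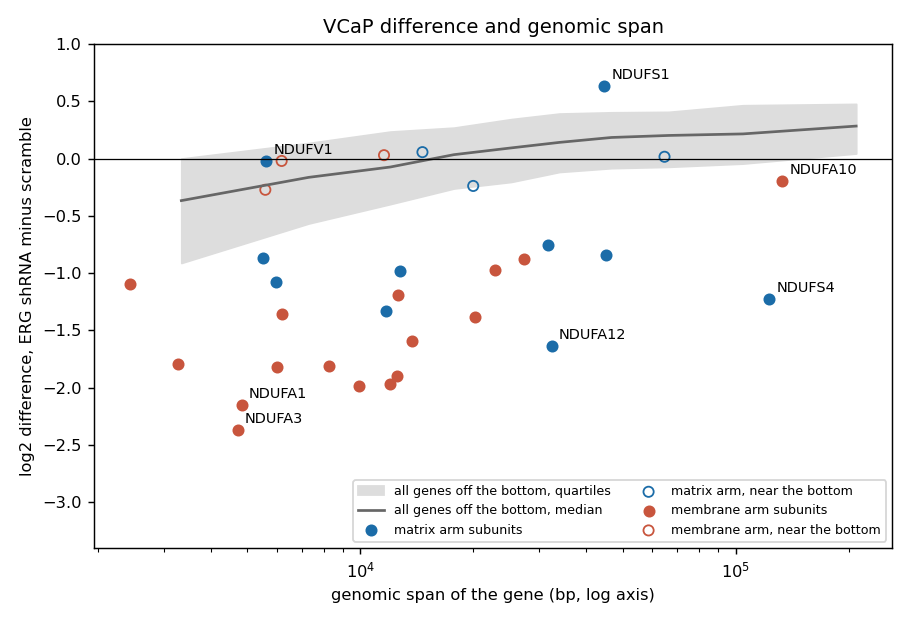
The horizontal axis is the span of a gene in base pairs on a log axis, and the vertical axis the VCaP log2 difference, arrays labelled ERG shRNA minus scramble. Points are the 32 members (blue matrix arm, red membrane arm, open near the bottom), and the line and band are the median and quartiles of all genes off the bottom in 10 classes of span. Most filled points lie below the band, with NDUFV1 inside it and NDUFS1 above it.

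The assembly factors and regulators had medians near 0 in VCaP, while some single genes among them were low. Of 18 assembly factors measured, 2 were counted lower and 0 higher at the threshold, beside 1.81% and 1.68% of all genes, and the median was -0.10. Those counted were NDUFAF2, a relative of NDUFA12 that holds its place during assembly (10.41 and 10.43 on the scramble arrays, 9.35 and 9.04 on those labelled ERG shRNA, -1.23), and COA1 (a mean of 10.83 on the scramble arrays and of 10.07 on the others, -0.76). Both calls were lost with either scramble array left out, and with the array number as a replicate block. NDUFAF3, another assembly factor, read 11.77 and 11.91 on the scramble arrays and 10.97 and 10.70 on the others, a larger difference than that of COA1, and was not counted. Of 14 regulators of mitochondrial gene expression 0 were counted in either direction by limma with Benjamini-Hochberg adjustment and 1 at an unadjusted p under 0.05, as were 21.6% of all genes. Their median was 0.01. PPARGC1A, PPARGC1B, NRF1, GABPA, ESRRG and MTERF1 were near the bottom of the scale, as were the assembly factors NDUFAF4, ECSIT, TIMMDC1 and TMEM186. A difference in RNA would hardly show in these genes. Of the neighbours of the family by name, COXFA4 and NDUFAB1 read lower as the members did. NDUFAB1 did not reach an unadjusted p under 0.05 in limma's fit. COXFA4L2 was near the bottom of the scale, with a mean of 7.61 in both groups. COXFA4, now placed with complex IV, read 13.25 and 12.96 on the scramble arrays and 12.08 and 11.81 on the others, and NDUFAB1, which is also an accessory subunit of complex I, read 12.00 and 11.53 against 11.18 and 10.30.

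In RWPE1 the question was whether GFP-ERG changes the family. These contrasts rest on other arrays than the VCaP contrast, though the members were chosen with earlier results of these data known. GFP-ERG moved few complex I subunits, and those it moved rose by at most 1.25-fold. At 48 h 1 of the 32 members was higher and 0 lower, when 4.86% of all genes were called higher and 3.93% lower, and the median member was at 0.03. At 72 h it was again 1 higher and 0 lower, with 3.19% and 3.01% of all genes, and a median of 0.03. Averaged over both times 3 were higher and 0 lower, with 6.82% and 5.68% of all genes, and a median of 0.02. These shares of all genes include dim genes, while most members are bright. In the fit on genes at or above the table's median signal, 15.7% were called at 48 h, in either direction. At 72 h it was 11.6%, and over both times 21.4%. The members were called less often than that, on counts of 1 to 3 genes.

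The 3 members were all of the matrix arm. NDUFA12, an accessory subunit where NDUFAF2 sits before it, read 12.21 and 12.16 with GFP and 12.54 and 12.47 with GFP-ERG at 48 h. Its signals at 72 h were 12.35 and 12.29 against 12.45 and 12.45. All GFP-ERG arrays lay above all GFP arrays. The log2 rise at 48 h was 0.32 (SE 0.064, n = 2 arrays a group, adjusted p = 0.00179, limma with Benjamini-Hochberg adjustment), and over both times 0.22 (SE 0.045, adjusted p = 0.00138). This was the only member whose 4 GFP-ERG arrays did not overlap its 4 GFP arrays, as was so for 4.14% of all genes in this direction. In the other direction it was 0 members and 3.89% of all genes. NDUFV1, the NADH-binding core subunit, read 10.75 and 10.76 with GFP and 10.88 and 11.00 with GFP-ERG at 48 h. At 72 h it read 11.14 and 10.89 against 11.26 and 11.34. Within each time the GFP-ERG arrays were the higher ones, and the GFP arrays at 72 h lay apart by more than the arrays of the other groups. The rise was 0.28 at 72 h (SE 0.077, adjusted p = 0.0277, limma with Benjamini-Hochberg adjustment) and 0.24 over both times (SE 0.054, adjusted p = 0.00475). The call at 72 h was lost when GFP array 2 of that time or either GFP-ERG array of that time was left out, with the rise between 0.16 and 0.41 over the alternatives. NDUFS7, the core subunit next to ubiquinone, read 11.68 and 11.67 with GFP and 11.78 and 11.96 with GFP-ERG at 48 h. The 72 h arrays read 11.83 and 11.89 against 12.03 and 12.03. It was called over both times only, at 0.18 (SE 0.048, adjusted p = 0.0127, limma with Benjamini-Hochberg adjustment), and lost the call without GFP array 2 at 48 h, GFP array 1 at 72 h or GFP-ERG array 2 at 48 h.

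The other 29 members did not pass in any of the 3 comparisons. In 13 members the GFP-ERG mean was above the GFP mean at both times and in 4 below it at both. NDUFA3 and NDUFA1, the lowest in VCaP, show little here: NDUFA3 read 12.17 and 12.23 with GFP against 12.02 and 12.12 with GFP-ERG at 48 h. Later, at 72 h, it read 12.39 and 12.48 against 12.31 and 12.48. NDUFA1 read 13.34 and 13.42 against 13.45 and 13.45, and 13.68 and 13.62 against 13.65 and 13.62. Across the 32 members, which share their arrays, rho between the VCaP difference and the RWPE1 GFP-ERG effect was -0.11. The change of the GFP-ERG effect from 48 h to 72 h passed limma's test with Benjamini-Hochberg adjustment in 0 members (0.205% of all genes were called higher and 0.271% lower), and 2 members had an unadjusted p under 0.05, as did 9.57% of all genes.

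**Figure D3:**
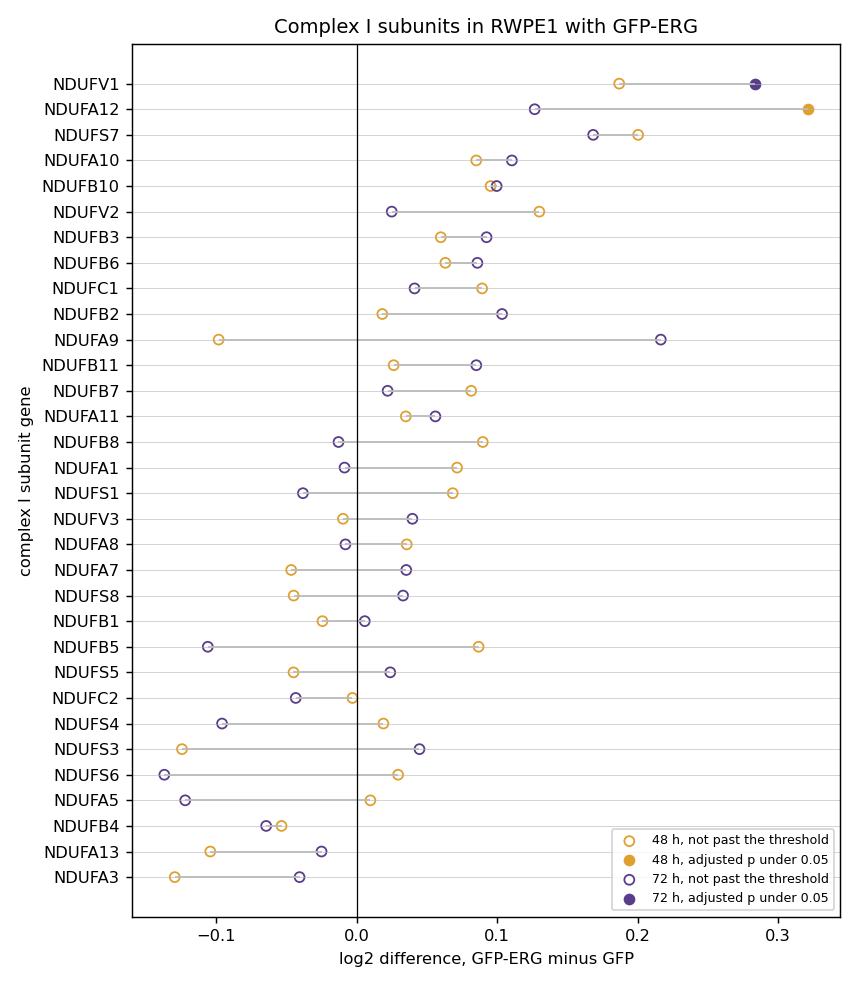
The horizontal axis is the log2 difference GFP-ERG minus GFP in RWPE1, and each row is 1 member at 48 h (yellow) and 72 h (purple), filled where limma's adjusted p was under 0.05. NDUFA12 at 48 h (0.32) and NDUFV1 at 72 h (0.28) are the filled points, and the 2 times of a member can lie on opposite sides of 0, as in NDUFA9.

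Of 18 assembly factors, 1 rose and 2 fell with GFP-ERG over both times, and of 14 regulators 0 rose and 1 fell. These are few genes, beside 6.82% of all genes called higher and 5.68% called lower, and nothing is read from the counts. TMEM186, which works with the complex that assembles the membrane arm, read 12.85 and 12.68 with GFP and 11.40 and 11.59 with GFP-ERG at 48 h. At 72 h the signals were 12.03 and 12.02 against 10.74 and 10.67. It fell by 1.30 over both times (2.46-fold, SE 0.052, adjusted p = 1.32e-13, limma with Benjamini-Hochberg adjustment), and within each time the arrays do not come near each other. NDUFAF1, a part of that same assembly complex, fell by 0.18 (SE 0.047, adjusted p = 0.0132, limma with Benjamini-Hochberg adjustment), and ECSIT, a partner of NDUFAF1, rose by 0.18 (SE 0.048, adjusted p = 0.017). NDUFAF1 lost the call without GFP array 2 at 48 h or GFP-ERG array 2 at 72 h. ECSIT lost it without GFP array 1 or GFP-ERG array 2 at 48 h and without GFP array 2 or GFP-ERG array 1 at 72 h. The regulator that fell was GABPB1, the partner of the ETS factor GABPA. It read 9.44 and 9.46 with GFP and 8.84 and 8.87 with GFP-ERG at 48 h. Its signals at 72 h were 9.28 and 9.13 against 9.12 and 9.01. Its log2 difference was -0.59 at 48 h (SE 0.068, adjusted p = 2.98e-06, limma with Benjamini-Hochberg adjustment).

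More members were called for time in culture than for GFP-ERG, as were more of all genes. With both constructs averaged, 17 of the 32 members were higher at 72 h than at 48 h and 2 lower, when 17.4% of all genes were called higher and 16.3% lower. Most members are bright, however. In the fit on genes at or above the table's median signal, 2639 of 8777 were called higher and 2469 lower, 58.2% in all. The number of calls alone thus does not set the members apart from brighter genes. The members' median log2 difference was 0.14, against 0.003 over all genes, and 26 members were above 0, as were 51.4% of all genes. In 17 members all 4 arrays at 72 h lay above all 4 at 48 h, which held for 14.2% of all genes, and in 0 below, which held for 11.1%. The rises were small, at most 1.31-fold. Time of harvest came with whatever else differed between cultures kept for 48 h and 72 h, and these cannot be told apart.

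NDUFA10, of the membrane arm, read 10.22 and 10.30 with GFP at 48 h and 10.62 and 10.63 at 72 h. With GFP-ERG it read 10.28 and 10.41, then 10.74 and 10.73. Its rise of 0.38 (SE 0.047, adjusted p = 1.15e-06, limma with Benjamini-Hochberg adjustment) was the largest in the family. NDUFS5, on the intermembrane side, read 13.26 and 13.36 and then 13.65 and 13.61 with GFP, and 13.28 and 13.25 and then 13.67 and 13.63 with GFP-ERG. It rose by 0.35 (SE 0.045, adjusted p = 2.66e-06, limma with Benjamini-Hochberg adjustment), with no overlap of the times. NDUFB10, its neighbour on the intermembrane side, read 11.84 and 11.81 and then 12.18 and 12.16 with GFP, and 11.96 and 11.88 and then 12.31 and 12.24 with GFP-ERG. It rose by 0.35 too (SE 0.045, adjusted p = 2.61e-06, limma with Benjamini-Hochberg adjustment).

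NDUFV1 rose by 0.31 (SE 0.054, adjusted p = 0.000105, limma with Benjamini-Hochberg adjustment) and was thus called for time and for GFP-ERG, but its arrays of 48 h and 72 h overlap once both constructs are pooled. NDUFA3 rose by 0.28 (SE 0.050, adjusted p = 0.000119, limma with Benjamini-Hochberg adjustment), NDUFA1 by 0.23, NDUFS1 by 0.23 and NDUFB2 by 0.22. NDUFS1, the exception in VCaP, thus went with the family here. The remaining rises, NDUFS6, NDUFB3, NDUFA7, NDUFC2, NDUFB1, NDUFS7, NDUFV3, NDUFB8 and NDUFA8, lay between 0.14 and 0.21. The rises took in 11 of the 19 membrane arm members and 6 of the 13 matrix arm members. The members that fell were NDUFS4, an accessory matrix subunit, and NDUFB6, of the membrane arm, each by 0.14. NDUFS4 read 13.08 and 13.11 and then 12.91 and 13.13 with GFP, and 13.13 and 13.11 and then 12.94 and 12.90 with GFP-ERG, so that 1 of the arrays at 72 h stands above every GFP array of 48 h. NDUFB6 read 12.57 and 12.47 and then 12.37 and 12.39, and 12.56 and 12.61 and then 12.52 and 12.41. Of the 19 calls, 13 held in every alternative. The call of NDUFS4 was lost without any 1 of 7 arrays (all but GFP array 2 at 72 h), that of NDUFB6 without any 1 of 5 (GFP array 1 and GFP-ERG array 2 at 48 h, and both GFP arrays and GFP-ERG array 2 at 72 h). NDUFS7 lost its call without GFP-ERG array 1 at 48 h, and NDUFV3 without GFP array 2 at 48 h or GFP-ERG array 2 at 72 h. NDUFB8 lost it without GFP array 2 or GFP-ERG array 1 at 48 h or GFP-ERG array 1 at 72 h, and NDUFA8 without GFP array 1 at 48 h or GFP array 2 or GFP-ERG array 1 at 72 h.

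The rise with time was seen under each construct on its own arrays. In GFP cells 11 members were higher and 0 lower, with 11.8% and 11.2% of all genes, and the median was 0.15. In GFP-ERG cells 12 were higher and 1, NDUFS4, lower, with 13.1% and 12.6% of all genes, and the median was 0.14. With dim genes left out, 42.7% of genes were called in either direction in GFP cells and 47.0% in GFP-ERG cells. The members called higher in both were NDUFA1, NDUFA3, NDUFA10, NDUFB3, NDUFB10, NDUFS5 and NDUFV1. The share of all genes called in both was not counted, so nothing is read from that overlap. The difference was above 0 in 26 of the 32 members in GFP cells and in 25 in GFP-ERG cells, beside 51.8% and 50.4% of all genes. In GFP cells, fewer members were called without either GFP array at 48 h or without GFP array 2 at 72 h. Fewer of all genes were called under these omissions as well. In GFP-ERG cells the same held, for members and for all genes, without either GFP-ERG array at 72 h. NDUFA9, a relative of the short-chain dehydrogenases, had opposite signs under the 2 constructs. It read 10.29 and 10.29 and then 10.29 and 10.22 with GFP, and 10.13 and 10.25 and then 10.52 and 10.42 with GFP-ERG. Its rise in GFP-ERG cells was 0.28 (adjusted p = 0.00328, limma with Benjamini-Hochberg adjustment), and it was lost without GFP-ERG array 1 at 72 h. The difference between the constructs did not pass the test. Across the 32 members rho between the time differences in the constructs was 0.69, and over all genes 0.67. The 3 genes of the same name pattern measured in RWPE1 only rose as well, NDUFA2 and NDUFA6 by 0.26 and NDUFB9 by 0.28.

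**Figure D4:**
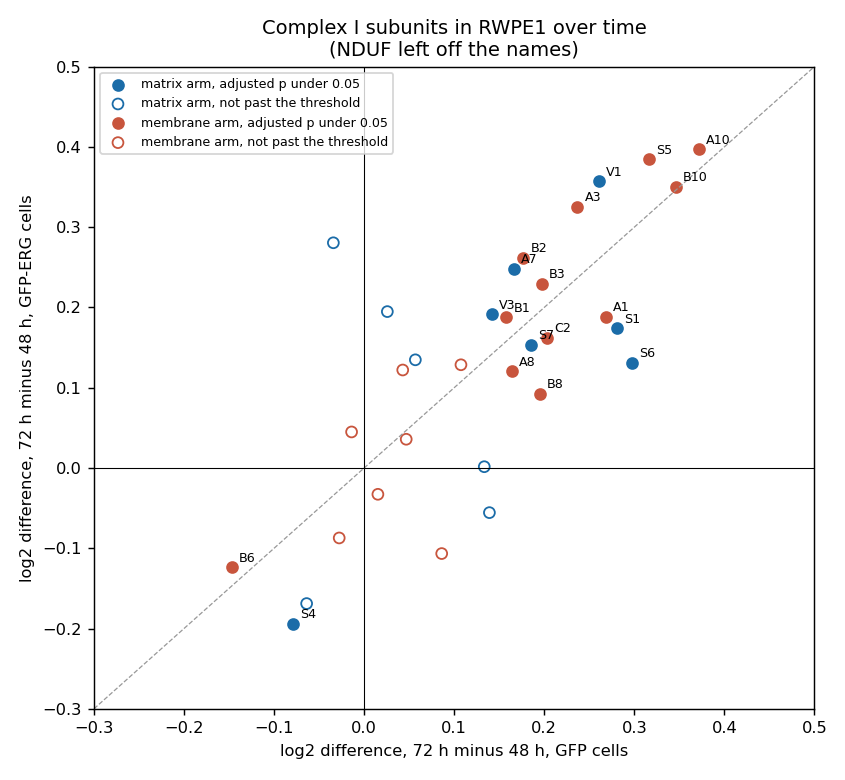
The horizontal axis is the log2 difference between 72 h and 48 h in GFP cells and the vertical axis the same in GFP-ERG cells, with 1 point a member, filled where the mean of the constructs had an adjusted p under 0.05. The 17 filled points of the rises lie at the upper right near the dashed line of equal differences, and NDUFS4 and NDUFB6 in the lower left.

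**Figure D5:**
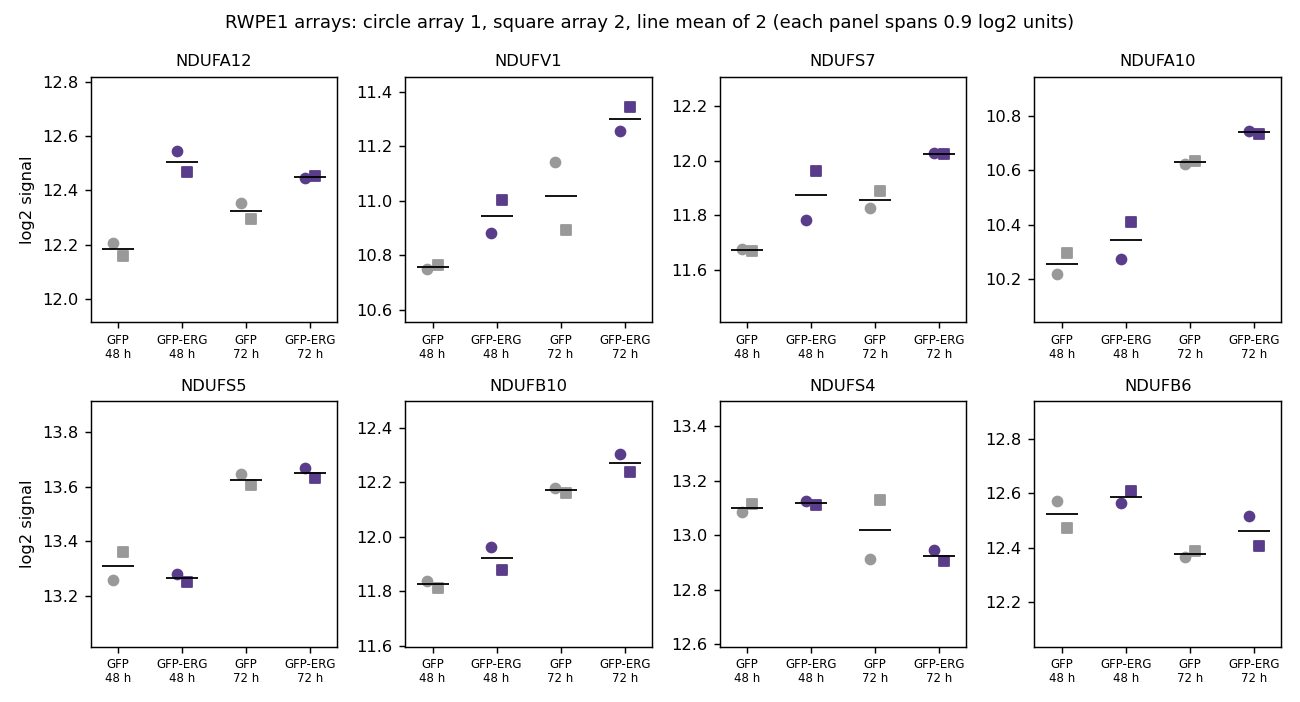
The vertical axes are log2 signals of 8 members in the 8 RWPE1 arrays, by construct and time, with circles for array 1, squares for array 2, a line for the mean and the same length of axis in all panels. In NDUFA10, NDUFS5 and NDUFB10 all arrays at 72 h lie above all arrays at 48 h, and in NDUFA12 all GFP-ERG arrays lie above all GFP arrays.

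Of 18 assembly factors 4 rose with time and 2 fell, shares near those of all genes (17.4% and 16.3%). NDUFAF4, which acts on the matrix arm, read 9.48 and 9.34 and then 10.04 and 9.96 with GFP, and 9.20 and 9.34 and then 10.02 and 9.98 with GFP-ERG. It rose by 0.66 (SE 0.050, adjusted p = 1.26e-09, limma with Benjamini-Hochberg adjustment). DMAC1, of the distal membrane arm, rose by 0.34 and NUBPL, which serves iron-sulphur clusters, by 0.22, while TMEM186 fell by 0.76. TMEM186 was thus lower both with GFP-ERG and with time. Of the 14 regulators 7 rose and 1, YY1, fell, beside the same shares of all genes, and the YY1 call was lost when any 1 of 5 arrays was left out. TFB2M, a transcription factor of mitochondria, rose by 0.48 (SE 0.052, adjusted p = 2.52e-07, limma with Benjamini-Hochberg adjustment), PPARGC1B by 0.38, PPARGC1A by 0.33 at the bottom of the scale, and GABPA by 0.32. The medians were 0.09 over the assembly factors and 0.14 over the regulators. Beside the family, COXFA4 read 13.57 and 13.62 and then 13.61 and 13.82 with GFP and 13.75 and 13.58 and then 13.86 and 13.68 with GFP-ERG, NDUFAB1 read between 12.72 and 12.99 on all 8 arrays, and COXFA4L2 was near the bottom in both lines.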

How the data were processed

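The values are those the authors deposited for Illumina bead arrays, 1 column an array, read as log2 signals from their range. That reading carries all fold changes. Which software, background correction and normalization they used is not stated in the labels or headers. Sorted values of an array lay within 0.0391 (RWPE1) and 0.0002 (VCaP) of their mean, and the values were used as deposited. Both tables were tested apart. There were 0 columns of other samples.

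Probes were named from the platform annotation, and 18332 of 20589 RWPE1 probes and 21833 of 24525 VCaP probes had 1 symbol and 0 had several. The other probes, 2257 and 2692, had none. Each gene took its probe with the highest mean (16591 genes in RWPE1, 16922 in VCaP). limma 3.58.1 (R 4.3.3, lmFit and eBayes, no trend, 2-sided) was fitted on group means over all 8 RWPE1 or all 4 VCaP arrays, with Benjamini-Hochberg adjustment over all genes and a threshold of 0.05. It was tested on simulated data. No probe's level was set against another's. Tables were made with Python 3.11.15 and pandas 2.3.3, plots with matplotlib 3.10.9. The number of arrays limits the precision.

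The alternatives were trended and robust variances, a filter on dim genes (mean at or above the table's median), the mean of all probes, arrays centred on their median, the array number as a replicate block, and leaving out each array. Members, lists and the rule for named genes were chosen with earlier results of these data known. Every member could be named. Those given in full were the 6 lowest and 3 highest in VCaP, up to 8 called members in each RWPE1 comparison, any member with a second probe that disagreed, the former NDUFA4 and NDUFA4L2, and up to 4 of each list.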

Additional observations from a re-analysis of the deposited data

Results flagged for a closer look

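GABPB1, the partner of the ETS factor GABPA, is listed because the GFP-ERG effect in RWPE1 differed between the times by a test of that difference. The log2 effect was -0.59 at 48 h, and the difference, 72 h minus 48 h, was 0.45 (SE 0.097, n = 2 arrays a group, adjusted p = 0.038, limma with Benjamini-Hochberg adjustment). The adjusted p ran from 0.0227 to 0.279 over 13 alternatives and was above the threshold in 6. GABPB1 is no complex I subunit, and the difference passed the test in 0 of the 32 subunits. Groups of 2 arrays are too small to test for single outlying arrays.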

How the results depend on the processing

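In VCaP, where 15 members were counted lower, trended and robust variances gave 23 (22 lower and 1 higher). The share of all genes called in either direction then went from 3.49% to 10.1%. With 1 array left out the members' count moved too, as did that over all genes. With either scramble array left out, all calls were lost, those of members and those over all genes alike. The median difference of -1.08 ran from -1.38 to -0.84 over the same omissions. The filter on dim genes, the mean of all probes and median centring gave 14 to 17. In RWPE1 leaving out 1 array gave 1 to 2 calls with GFP-ERG at 48 h, 0 to 2 at 72 h, 2 to 3 over both times, 4 to 13 for time in GFP cells, 7 to 13 for time in GFP-ERG cells, 16 to 19 for time over both constructs, and 0 for the difference between times. The share of all genes called moved with these omissions too. The filter on dim genes gave 2 at 72 h, when 11.6% of the genes kept were called, against 6.20% of all genes in the main fit. Apart from the replicate block, below, the other settings stayed within 1.5 times of the reported counts. No member called in RWPE1 changed sign. In VCaP NDUFV1, NDUFA5 and NDUFB4, whose differences are close to 0, took either sign (NDUFV1 from -0.11 to 0.07).

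Array numbers recur in all groups, so a fit with the array number as a replicate block was made. Deviations of like-numbered arrays correlated at -0.0571 to 0.0776 in RWPE1, where the numbers do not show a pairing. In VCaP the correlation was 0.19, a single value that cannot settle whether the arrays were paired. With the replicate block 0 members were called in VCaP, and 0 of all genes. In RWPE1 it gave 1, 1 and 3 calls with GFP-ERG at 48 h, 72 h and over both times, 0 for their difference, and 11, 12 and 19 for time in GFP cells, in GFP-ERG cells and over both.

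The limits are 2 arrays a group, values read as log2, no detection p-values, and dim probes, whose differences are compressed. An ERG probe that ran against its label limits what the VCaP contrast can be called. When an array is left out its group keeps 1, which is taken to vary like the others.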
